A study of Mus musculus with 11 samples.

Results

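The receptor, kinases, transcription factor and direct targets of the leukaemia inhibitory factor (LIF) pathway were followed in poly(A)+ RNA of mouse embryonic stem cells (mESCs) and mouse embryonic fibroblasts (MEFs). The genes were chosen by name and make up 10 of the 26398 genes listed in both deposited tables. They comprise the receptor chains Lifr, Il6st and Osmr, the kinases Jak1 and Jak2, the transcription factor Stat3, and its direct targets Socs3, Pim1, Pim3 and Gbx2. The series holds 11 libraries. For mESCs there were 2 WT (Atxn7l3+/+) and 3 Atxn7l3-/- lines, and for MEFs there were 3 cultures of each genotype. ATXN7L3 is an adaptor that the deubiquitylases of monoubiquitylated histone H2B need for their activity, and the knockout allele is constitutive, on a mixed DBA/2 x C57BL/6 background. Each mESC line was derived from 1 blastocyst and kept on feeder cells for 2 passages before feeder-free growth with LIF, 15% serum, 1 µM PD0325901 (an inhibitor of MEK) and 3 µM of an inhibitor of GSK3 labelled CH99021. Each MEF culture came from 1 embryo of E10.5 whose head and gastrointestinal tract had been removed, a mixture of cells from the remaining body, grown in 10% serum with no LIF listed. Same-numbered libraries are different animals, so the spread between libraries includes that between lines. By the study's methods, 1 further WT mESC dataset was dropped because it clustered apart from the other replicates. It was not analysed here, so the spread between WT mESC lines is that of the 2 kept.

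LIF binds a receptor made of LIFR and the shared signalling chain gp130, the product of Il6st, and the paired chains bring together JAK kinases that phosphorylate STAT3. Phosphorylated STAT3 enters the nucleus and raises transcription of genes that sustain self-renewal of mESCs as well as of Socs3, whose product blocks the receptor and its kinases again. OSMR replaces LIFR in the receptor of oncostatin M and is typical of fibroblasts and other stromal cells. RNA levels report on the abundance of these transcripts, not on phosphorylation of the proteins.

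Library totals ranged from 34515342 to 49602605 counts, and levels are given as CPM, counts scaled to library size, in which 3 counts, taken as the floor, are worth 0.0605 to 0.0869. The targeted gene Atxn7l3 was at 0.833 to 3.34 CPM in Atxn7l3-/- mESCs and at 197 and 203 CPM in WT mESCs. In MEFs it was at 55.5 to 73.3 CPM in the Atxn7l3-/- libraries and at 86.6 to 117 CPM in WT, without overlap, with a log2 fold change of -0.74 ± 0.21 (SE) and an adjusted p of 0.0715 by edgeR's quasi-likelihood test. The counts are per gene and do not show which exons the remaining reads come from. By western blot, the study reported no detectable ATXN7L3 protein in Atxn7l3-/- mESCs or MEFs. All 8 mESC markers were detected in mESCs, and their sum was between 3496 and 4296 CPM. Of the 8, Tdgf1 was called lower in Atxn7l3-/- mESCs (log2 fold change -1.71, adjusted p = 0.0299, edgeR). In MEFs 5 of the 8 were in the table, with a sum of at most 49.6 CPM. All 10 fibroblast markers were detected in both MEF groups and none passed the test. Prrx1, a factor of limb and craniofacial mesenchyme, was at 27.9, 6.17 and 341 CPM in Atxn7l3-/- MEFs and 466 to 573 CPM in WT (adjusted p = 0.303, edgeR). Dcn was at 711 to 2445 CPM in Atxn7l3-/- MEFs and 25.3 to 382 CPM in WT (adjusted p = 0.0936, edgeR). Dcn, Pdgfra and Col3a1 had positive log2 fold changes and the rest of the list negative ones. The 6 mesothelial markers, among them Msln and Upk3b, summed to 15.1 to 41.9 CPM in WT MEFs and to 6110 to 9033 CPM in Atxn7l3-/- MEFs, and all 6 passed the test upwards. In the same comparison 3 of 4 neural markers tested fell, with sums of 151 to 292 CPM in WT and 9.44 to 47.1 CPM in Atxn7l3-/-. Of the muscle markers 2 of 6 fell (Myh7 and Myl4). Myl7 and Tnnt2 had positive log2 fold changes, and Actc1 and Myog negative ones, all uncalled. The muscle sum overlapped, at 27.6 to 75.6 CPM in WT and 19.7 to 221 CPM in Atxn7l3-/-. Gata4 and Gata6 of 5 primitive endoderm markers rose, and so did 1 epithelial and 1 erythroid marker. In Atxn7l3-/- mESCs 1 fibroblast and 1 epithelial marker rose, and 1 muscle and 1 neural marker fell. In mESCs the 2 WT libraries and Atxn7l3-/- replicate 3 had between 4217 and 8532 counts of the Y-linked gene Ddx3y, whereas Atxn7l3-/- replicates 1 and 2 had 115 and 37. In MEFs WT replicate 3 alone had 10 counts of Ddx3y and 13777 of Xist, and the other MEF libraries had at least 2123 counts of Ddx3y. The part of cell composition and of sex in the results that follow was not tested except where a value without those libraries is given.

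Between the WT cell types 8 of the 10 genes were called, with Lifr and Socs3 as the exceptions, beside 26.8% of all genes tested that were higher in MEFs and 27.1% that were lower. Within a cell type the knockout comparisons called 1 of the 10. WT MEFs had more RNA of Il6st, Osmr, Jak1, Jak2 and Stat3 than WT mESCs and less of Pim1, Pim3 and Gbx2. In Atxn7l3-/- mESCs none of the 10 genes passed the test, and in Atxn7l3-/- MEFs Pim3 rose 3.54-fold. Calls required an adjusted p of 0.05 or less in edgeR's quasi-likelihood test over all genes tested, by the Benjamini-Hochberg method.

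In mESCs, 3.08% of the 17800 genes tested were called higher and 3.88% lower in Atxn7l3-/-, and 0 of the 10 genes were called by edgeR. Of the 10 genes, 4 had an unadjusted p under 0.05, beside 5309 of the 17800 genes tested. DESeq2 called 1 of them, Gbx2, among 3390 genes in all. The libraries of both genotypes did not overlap for 5 of the 10 genes, beside 49.7% of all genes tested. In MEFs, 5.01% of the 15958 genes tested were called higher and 4.39% lower, and 1 of the 10 genes was called, upwards. The MEF groups did not overlap for 5 of the 10 genes, beside 39.8% of all genes tested. Between WT MEFs and WT mESCs, 26.8% of the 19326 genes tested were higher and 27.1% lower, and the 10 genes counted 5 higher and 3 lower. The median log2 fold change of the 10 genes was 0.14 in mESCs (all genes tested 0.04), 0.42 in MEFs (all genes tested -0.06) and 0.44 between the WT cell types (all genes tested -0.01). In mESCs and MEFs each fold change was estimated from 5 and 6 libraries, and the intervals drawn for it are wide.

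**Figure D1:**
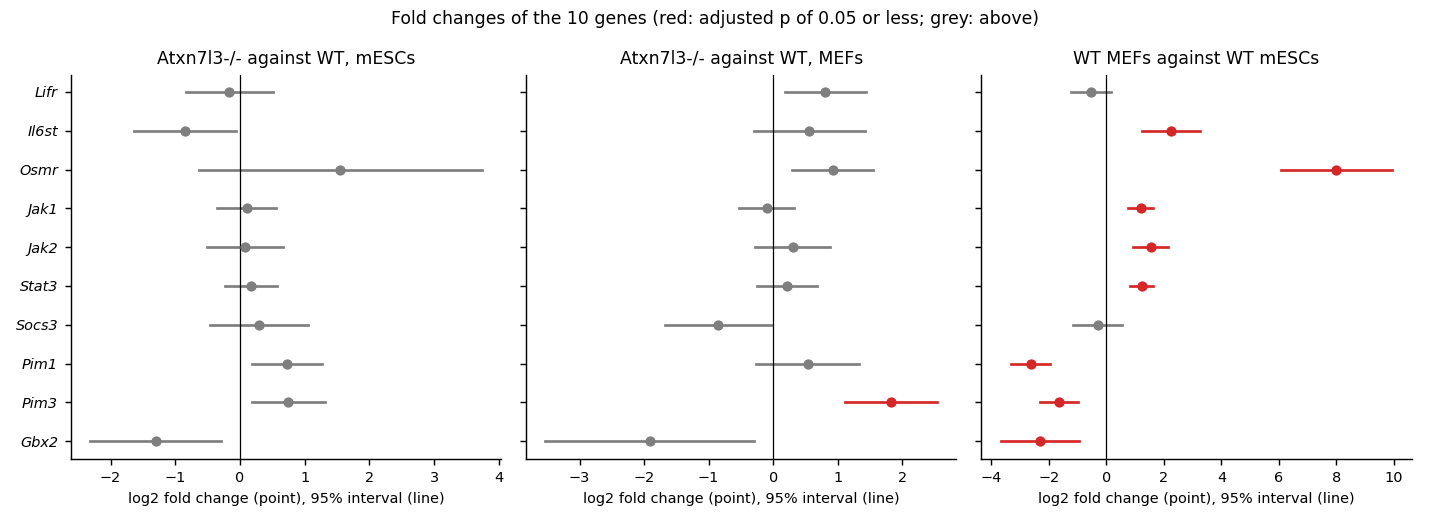
Log2 fold change of each of the 10 genes (points) with its 95% interval (lines) for Atxn7l3-/- against WT in mESCs (2 WT and 3 Atxn7l3-/- libraries), for the same contrast in MEFs (3 and 3) and for WT MEFs against WT mESCs; the x axes differ in range. Red marks an adjusted p of 0.05 or less, which holds for no gene in mESCs, for Pim3 alone in MEFs and for 8 of 10 genes between the WT cell types.

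Lifr encodes the ligand-binding chain of the LIF receptor (chr15:7129559-7197489, plus strand, mm10; 19 exons in its longest coding transcript). In mESCs its level was 31.4 and 55.4 CPM in the WT libraries and 29.6, 39.0 and 43.0 CPM in the Atxn7l3-/- libraries. In MEFs it was 34.7, 33.8 and 22.3 CPM in WT and 66.5, 51.8 and 43.2 CPM in Atxn7l3-/-. The mESC genotypes overlapped, and every Atxn7l3-/- MEF library stood above every WT one. The log2 fold change was -0.17 ± 0.29 in mESCs (adjusted p = 0.732, edgeR) and 0.81 ± 0.26 in MEFs (adjusted p = 0.093), here and below with its SE. WT MEFs and WT mESCs overlapped in their Lifr level, and their log2 fold change was -0.52 with a 95% interval from -1.22 to 0.18.

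Il6st encodes gp130, the chain shared by the receptors of LIF, oncostatin M, interleukin 6 and their relatives (chr13:112464070-112510086, plus strand; 17 exons). The WT mESC libraries had 84.4 and 106 CPM and the Atxn7l3-/- mESC libraries 45.6, 77.7 and 31.4 CPM, so all 3 lay below both WT lines. The WT MEF libraries had 443, 619 and 291 CPM and the Atxn7l3-/- MEF libraries 564, 919 and 537 CPM, with overlap. The log2 fold change was -0.85 ± 0.34 in mESCs (adjusted p = 0.144) and 0.56 ± 0.36 in MEFs (adjusted p = 0.314). In mESCs it reached -1.23 with an adjusted p of 0.0362 without Atxn7l3-/- replicate 2, the highest of the 3. Among the 3 mESC libraries with reads of Ddx3y at WT level, a subset chosen after seeing the data, it was -1.52 between 1 Atxn7l3-/- line and the 2 WT lines, a comparison without replicates on the Atxn7l3-/- side. Over all alternatives the adjusted p in mESCs ran from 0.00849, in that unreplicated subset, to 0.473. In bulk RNA, a change in the share of cells that express a gene and a change in RNA per cell cannot be told apart. Between the WT cell types Il6st was 4.73-fold higher in MEFs (log2 2.24 ± 0.45, adjusted p = 0.00211).

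Osmr, a chain of the oncostatin M receptor (chr15:6813577-6874969, minus strand, 18 exons), marked the difference between the cell types. WT MEFs had 80.0, 133 and 83.6 CPM and WT mESCs 0.0573 and 0.721 CPM, the first of which rests on 3 counts. The log2 fold change of 7.996 ± 0.88 (adjusted p = 5.6e-05) was the largest of the 10 genes in any comparison. It was 7.09 without WT mESC replicate 1 and 10.68 without WT mESC replicate 2, and stayed called. In Atxn7l3-/- MEFs Osmr was at 161, 190 and 215 CPM, above every WT MEF library, with a log2 fold change of 0.92 ± 0.26 and an adjusted p of 0.0708. Without WT replicate 2 the adjusted p was 0.043. Over the alternatives it ran from 0.0345 with DESeq2 to 0.227 in 1 fit of all 11 libraries. In Atxn7l3-/- mESCs it was at 0.874, 1.76 and 0.676 CPM, which overlaps WT. The mESC log2 fold change of 1.55 had a 95% interval from -0.63 to 3.74 and rested on 38 counts in the 2 WT libraries together.

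The summed fibroblast markers of the same mESC libraries were also higher in Atxn7l3-/-. The sum was 25.9 and 99.5 CPM in WT replicates 1 and 2, and 272, 394 and 275 CPM in Atxn7l3-/- replicates 1 to 3. Col1a1, a fibrillar collagen chain and the most abundant of the markers named here in these libraries, was at 9.66 and 47.6 CPM in WT and 141, 190 and 149 CPM in Atxn7l3-/-, and was the 1 fibroblast marker of 8 tested that was called (adjusted p = 0.0469). The sum was carried by 3 collagen genes (Col1a1, Col1a2 and Col3a1), whereas Pdgfra, Pdgfrb and Thy1 had log2 fold changes of 0.04, 0.13 and 0.37. WT replicate 1 was lowest and Atxn7l3-/- replicate 2 highest both in the marker sum and in Osmr, but Atxn7l3-/- replicate 3 had a higher sum and a lower Osmr level than WT replicate 2, and Twist2 was at or below 3 counts in every mESC library. The part of fibroblast-like cells in the mESC values of Osmr was not tested.

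**Figure D2:**
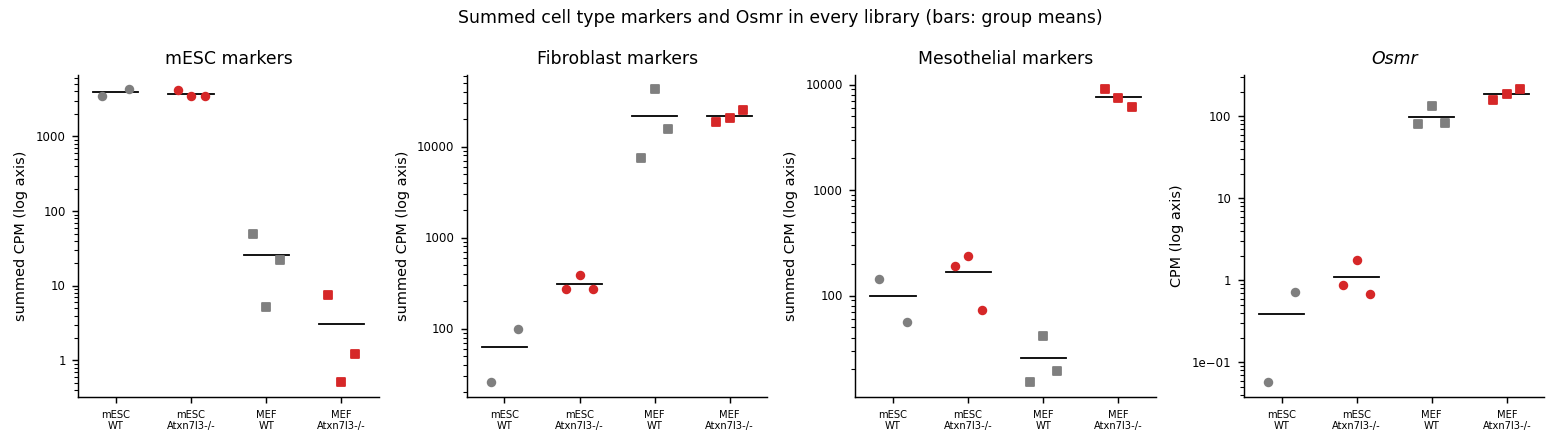
Summed CPM of the mESC, fibroblast and mesothelial marker lists and CPM of Osmr in each of the 11 libraries on log axes, with circles for mESCs, squares for MEFs, grey for WT, red for Atxn7l3-/- and bars for group means. The mesothelial sum separates the 3 Atxn7l3-/- MEF libraries (6110 to 9033 CPM) from the 3 WT ones (15.1 to 41.9 CPM). The fibroblast sum and Osmr, there from 3 counts, are lowest in the same WT mESC library. Atxn7l3-/- mESC replicate 3 has a higher fibroblast sum and a lower Osmr level than WT mESC replicate 2. A link between the fibroblast sum and Osmr was not tested.

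Jak1 (chr4:101152367-101265282, minus strand; 25 exons), Jak2 (chr19:29251828-29313080, plus strand; 25 exons) and Stat3 (chr11:100885098-100939540, minus strand; 24 exons) carry the signal from the receptor to the nucleus. None of them was called in a knockout comparison. Jak1 and Stat3 varied little within a cell type, while Jak2 spread more widely among the WT MEF libraries. Jak1 was at 127 and 105 CPM in WT mESCs and at 132, 124 and 106 CPM in Atxn7l3-/- mESCs. In MEFs it was at 254, 265 and 279 CPM in WT and at 238, 246 and 267 CPM in Atxn7l3-/-. The genotypes overlapped in both cell types, and the log2 fold changes were 0.10 (95% interval -0.36 to 0.56) in mESCs and -0.10 (-0.53 to 0.33) in MEFs.

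Jak2 was at 23.8 and 19.3 CPM in WT mESCs and at 22.4, 25.6 and 18.2 CPM in Atxn7l3-/- mESCs. In MEFs it was at 79.2, 47.3 and 61.7 CPM in WT and at 80.7, 86.8 and 67.8 CPM in Atxn7l3-/-. Both pairs of groups overlapped. Its log2 fold change was 0.08 with an interval from -0.51 to 0.67 in mESCs and 0.30 with an interval from -0.28 to 0.88 in MEFs, and differences inside these intervals could not be resolved with these libraries.

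Stat3 had 115 and 110 CPM in WT mESCs and 126, 119 and 124 CPM in Atxn7l3-/- mESCs, a small separation without overlap. WT MEFs had 239, 298 and 253 CPM and Atxn7l3-/- MEFs 298, 288 and 335 CPM, with overlap. The log2 fold changes of 0.17 ± 0.18 in mESCs (adjusted p = 0.547) and 0.21 ± 0.20 in MEFs (adjusted p = 0.481) were no larger than about their SE. Between the WT cell types all 3 genes were called higher in MEFs, Jak1 by 2.28-fold (adjusted p = 0.000576), Jak2 by 2.92-fold (adjusted p = 0.00101) and Stat3 by 2.33-fold (adjusted p = 0.000424). The annotated spans of Jak1 and Stat3 overlap genes of the other strand (Raver2 and Stat5a). The libraries were strand-specific, but whether the counting used strand is not given in the sources used here.

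**Figure D3:**
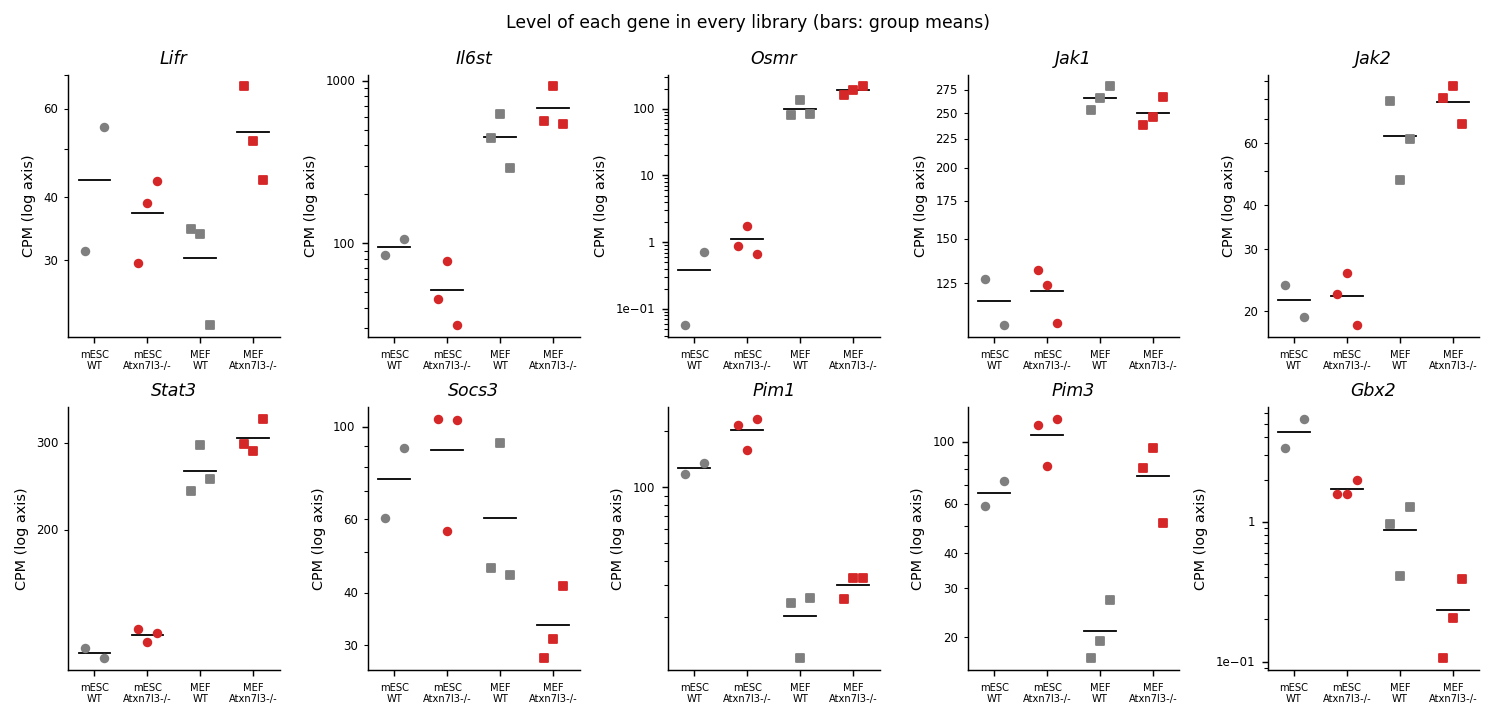
CPM of each of the 10 genes in each of the 11 libraries on log axes, with 1 point per library, circles for mESCs, squares for MEFs, grey for WT, red for Atxn7l3-/- and bars for group means. Osmr spans from 0.0573 CPM in a WT mESC library to 215 CPM in an Atxn7l3-/- MEF library, Jak1 and Stat3 vary little within a cell type, and Pim3 stands higher in every Atxn7l3-/- library than in the WT libraries of its cell type.

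The 4 target genes differ in role. Socs3 encodes the feedback inhibitor of the receptor, Pim1 and Pim3 encode serine/threonine kinases that favour survival and growth, and Gbx2 encodes a homeobox factor that STAT3 induces in mESCs. The promoters of Socs3 and Pim3 are shown because Socs3 was the only 1 of the 10 genes with a match to the STAT motif in its promoter window and Pim3 was the only gene called in a knockout comparison. The motif searched was TTCNNNGAA, which is its own reverse complement, so 1 search covers both strands, and the windows were the 300 bases from 250 before to 50 after each RefSeq start (build GRCm38.p6, 12 windows for the 10 genes). Of all 32851 windows, 8.3% hold the motif. The match, in capitals, begins 154 bases before the Socs3 start. Both sequences are written 5′ to 3′ on the strand of the gene, from chr11:117969452-117969616 (minus strand, 165 bases, 70.3% G and C) and chr15:88861944-88862185 (plus strand, 242 bases, 67.4% G and C), and hold no annotated exon. The Socs3 stretch lies upstream of the coding transcript, within an intron of a noncoding Socs3 transcript that begins further upstream, and the Pim3 stretch ends at the base before its first exon.
Socs3: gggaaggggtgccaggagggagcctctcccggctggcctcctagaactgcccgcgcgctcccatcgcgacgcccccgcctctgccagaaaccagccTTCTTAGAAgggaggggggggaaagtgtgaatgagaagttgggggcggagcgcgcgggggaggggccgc
Pim3: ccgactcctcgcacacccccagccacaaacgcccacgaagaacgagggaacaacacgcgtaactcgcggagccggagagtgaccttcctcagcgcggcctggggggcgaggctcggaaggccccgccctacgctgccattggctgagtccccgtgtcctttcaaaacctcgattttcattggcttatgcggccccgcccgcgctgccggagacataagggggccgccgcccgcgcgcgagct

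Pim3 (chr15:88862186-88865718, plus strand; 6 exons) had 16.9, 19.4 and 27.1 CPM in WT MEFs and 80.3, 95.4 and 51.4 CPM in Atxn7l3-/- MEFs. The lowest Atxn7l3-/- library lay above the highest WT one. Its log2 fold change was 1.82 ± 0.30 (95% interval 1.11 to 2.54, adjusted p = 0.0217), and the gene was higher in 3 of 3 libraries. Leaving out any of the 3 WT replicates or Atxn7l3-/- replicate 1 or 2 took the call away, with adjusted p between 0.0528 and 0.0719, and the log2 fold change without each library stayed between 1.63 and 2.06. Corrections for GC content, chosen after seeing the data, raised it to 3.08 (adjusted p = 0.0197) without and 2.93 (adjusted p = 0.0305) with the replicate block. The mesothelial markers given above rose in the same 3 libraries, and their part in the Pim3 value was not tested.

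In mESCs Pim3 had 59.1 and 72.4 CPM in WT and 115, 82.2 and 120 CPM in Atxn7l3-/-, again without overlap. Its log2 fold change there was 0.74 ± 0.24 (adjusted p = 0.0958). Pim1 (chr17:29490812-29496111, plus strand; 6 exons) had 118 and 135 CPM in WT mESCs and 216, 159 and 232 CPM in Atxn7l3-/- mESCs. For both kinases Atxn7l3-/- replicate 2 was the library nearest to WT. The log2 fold change of Pim1 was 0.73 ± 0.24 (adjusted p = 0.0927). Without Atxn7l3-/- replicate 2, Pim1 (adjusted p = 0.0361) and Pim3 (adjusted p = 0.0355) were both called. Without any filter on low counts Pim1 was called as well (adjusted p = 0.0467), and without WT replicate 1 the adjusted p rose to 0.394 for Pim1 and 0.422 for Pim3, the highest of their alternatives.

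In MEFs Pim1 had 23.8, 12.1 and 25.4 CPM in WT and 25.0, 32.3 and 32.6 CPM in Atxn7l3-/-, with overlap and a log2 fold change of 0.54 ± 0.34 (adjusted p = 0.3). WT MEFs had less of both kinases than WT mESCs. The log2 fold change was -2.63 ± 0.31 for Pim1 (adjusted p = 8.53e-05) and -1.64 ± 0.30 for Pim3 (adjusted p = 0.00123). Atxn7l3-/- MEFs had a mean of 75.7 ± 22.3 CPM of Pim3 (SD, n = 3) beside 65.7 ± 9.38 CPM in WT mESCs (SD, n = 2).

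Socs3 (chr11:117966079-117970047, minus strand, 2 exons) was not called in either knockout comparison. As for both PIM kinases, Atxn7l3-/- replicate 2 was the lowest of the Atxn7l3-/- mESC libraries. In mESCs it had 60.5 and 89.1 CPM in WT and 104, 56.3 and 104 CPM in Atxn7l3-/-, with Atxn7l3-/- replicate 2 below both WT libraries. In MEFs it had 46.0, 91.5 and 44.1 CPM in WT and 27.9, 31.0 and 41.6 CPM in Atxn7l3-/-, so the genotypes did not overlap. The log2 fold change was 0.30 ± 0.33 in mESCs (adjusted p = 0.574) and -0.86 ± 0.35 in MEFs (adjusted p = 0.144). With the correction for GC content the MEF value was -0.09 (adjusted p = 0.868). WT MEFs and WT mESCs overlapped, with a log2 fold change of -0.31 and an interval from -1.14 to 0.53.

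Gbx2 (chr1:89927956-89931179, minus strand; 2 exons) was the target with the fewest reads. WT mESCs had 3.38 and 5.40 CPM, from 177 and 262 counts, and Atxn7l3-/- mESCs 1.57, 1.59 and 1.98 CPM, from 61 to 88 counts. All Atxn7l3-/- mESC libraries lay below both WT libraries, and the log2 fold change was -1.30 ± 0.44 (adjusted p = 0.101 with edgeR, 0.00811 with DESeq2). WT MEFs had 0.959, 0.406 and 1.27 CPM and Atxn7l3-/- MEFs 0.106, 0.205 and 0.389 CPM, from 4 to 13 counts, with a log2 fold change of -1.92 ± 0.68 (adjusted p = 0.11). Over the alternatives the MEF value ran from -2.48 to -1.10, the latter with GC correction and replicate block, and its adjusted p from 0.0498, in 1 fit of all 11 libraries, to 0.321. The adjusted p in mESCs reached 0.462 without WT replicate 2. The level in WT MEFs was below that in WT mESCs (log2 -2.31 ± 0.62, adjusted p = 0.00957), a call lost without WT mESC replicate 2 (adjusted p = 0.0796). Genes of the other strand overlap Pim1 and Gbx2, and the limit on strand given for Jak1 holds for these too.

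**Figure D4:**
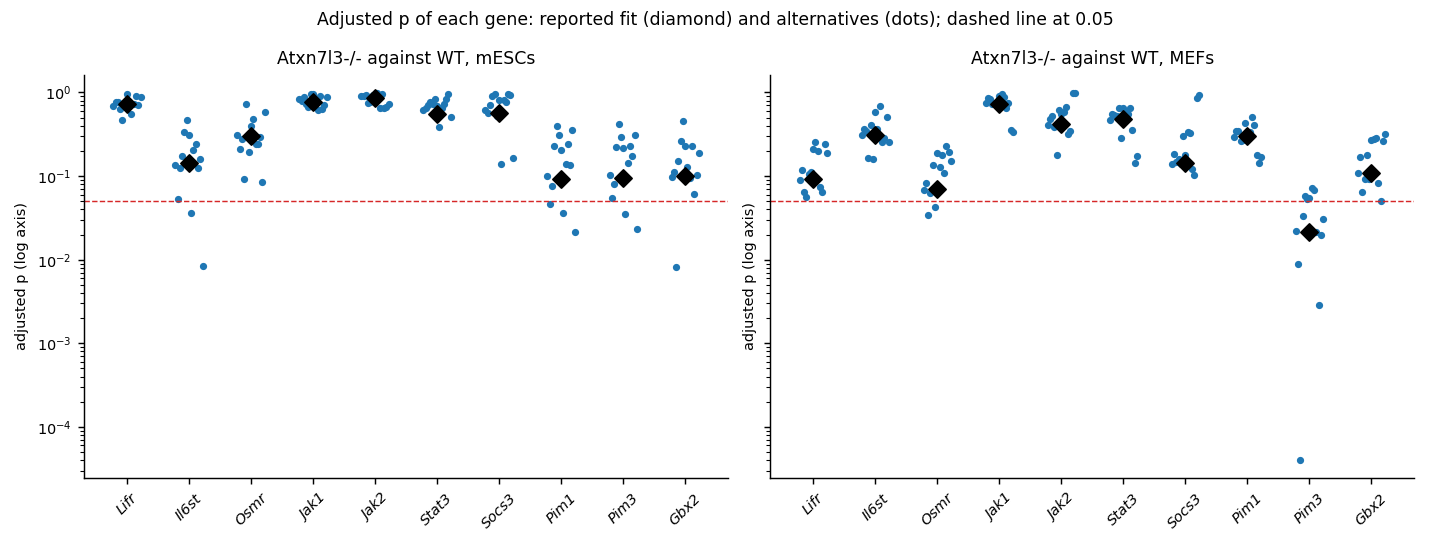
Adjusted p on a log axis for each of the 10 genes in Atxn7l3-/- against WT mESCs (left) and MEFs (right), with a black diamond for the reported edgeR fit, blue dots for the alternative settings and a dashed line at 0.05. Pim3 in MEFs lies under the line in the reported fit (0.0217) with dots on both sides, and in mESCs single settings bring Il6st, Pim1, Pim3 or Gbx2 under it.

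Whether the knockout effect differed between the cell types was tested with an interaction term, fitted to the 11 libraries together. Of the 19326 genes tested, 6.14% were called with a higher and 5.27% with a lower effect in MEFs, and 0 of the 10 genes were called by edgeR or by DESeq2, while 3 of 10 had an unadjusted p under 0.05, beside 5981 of the 19326. The differences furthest from 0 relative to their error were 1.15 ± 0.41 for Pim3 (adjusted p = 0.0869), 1.47 ± 0.56 for Il6st (adjusted p = 0.105) and 1.05 ± 0.43 for Lifr (adjusted p = 0.125). Il6st was called without Atxn7l3-/- mESC replicate 2 (1.89, adjusted p = 0.0452), and Pim3 without Atxn7l3-/- MEF replicate 3 (1.37, adjusted p = 0.0336) and with the GC correction (2.58, adjusted p = 0.0152). Over their alternatives the adjusted p reached 0.281 for Il6st and 0.264 for Pim3. The replicate block reduced the genes called from 2205 to 1381 over all genes and called none of the 10. The remaining 7 genes had adjusted p of at least 0.182, among them Socs3 at -1.09 ± 0.52.

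Levels were set between genes only per length, within a group. Per kb of the median transcript length in the deposited tables, Jak1 (7864 normalized reads per kb), Socs3 (6478) and Stat3 (6409) came first in WT mESCs, with overlapping neighbours, and Osmr (5.32) last. These medians include short transcripts, and per kb of all annotated exons together the order in WT mESCs began with Pim1 at 37.7 CPM per kb, Pim3 at 27.1 and Socs3 at 25.9, the last pair overlapping. In WT MEFs Il6st (40.6) and Jak1 (36.8), which overlapped, came first per kb of exons, and Lifr (2.81) and Gbx2 (0.403) last.

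The other genes of the pathway were taken as a list of 53 (ligands, receptors, kinases, other STATs, inhibitors and other STAT3 targets), of which 51 were tested in mESCs and 49 in MEFs. In Atxn7l3-/- mESCs 1 rose and 3 fell, beside 3.08% and 3.88% of all genes tested. All 4 are among the 17 STAT3 targets on the list. In Atxn7l3-/- MEFs 3 rose and 0 fell, beside 5.01% and 4.39% of all genes tested. Among the 3 were 1 of the inhibitors and 1 of the targets. Of the 49, 16 had an unadjusted p under 0.05, beside 5166 of the 15958 genes tested. The median log2 fold change of the list was 0.09 in mESCs and 0.04 in MEFs.

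Among the ligands, Lif itself was at 90.1, 19.6 and 41.4 CPM in WT MEFs and at 292, 185 and 247 CPM in Atxn7l3-/- MEFs. The groups did not overlap, and the log2 fold change of 2.23 ± 0.55 missed the threshold (adjusted p = 0.0529). It passed with the replicate block (2.49, adjusted p = 0.0228), and over the alternatives its adjusted p ran from 0.00149 with DESeq2 to 0.145 without WT replicate 3. In mESCs, which receive LIF in the medium, Lif was at 24.3 to 39.1 CPM in WT and 26.4 to 40.5 CPM in Atxn7l3-/-, a log2 fold change of 0.12 (adjusted p = 0.806). None of the 7 ligands, 4 receptors and 2 kinases tested in each cell type was called in the reported fits. Cntfr, the receptor of ciliary neurotrophic factor, had a log2 fold change of -3.22 in MEFs (adjusted p = 0.0502), with 3.73 to 6.71 CPM in WT and 0.128 to 1.02 CPM in Atxn7l3-/-. It was called with RLE normalization (adjusted p = 0.0486) and with the replicate block (adjusted p = 0.0319), while over the alternatives its adjusted p ran from 0.000108 with DESeq2 to 0.144.

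Stat5a and Stat5b, which encode the STAT5 factors, had log2 fold changes of -0.03 and 0.14 in MEFs (adjusted p = 0.974 and 0.655). Of 15 inhibitors, Socs5 was called, at 85.9, 70.4 and 114 CPM in WT MEFs and 168, 248 and 186 CPM in Atxn7l3-/- MEFs (log2 1.14 ± 0.26, adjusted p = 0.0451). The Socs5 call was lost with the replicate block (adjusted p = 0.0577) and without any 1 of the 6 libraries (adjusted p from 0.0541 to 0.137). Cish, a further SOCS family member that STAT5 induces, had a log2 fold change of 1.00 (adjusted p = 0.0691) and Socs1 one of -2.69 (adjusted p = 0.104).

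Tfcp2l1, a transcription factor through which LIF sustains naive pluripotency, was the pathway gene with the largest change in MEFs. It had 1.24, 1.56 and 1.07 CPM in WT MEFs and 75.2, 60.4 and 27.2 CPM in Atxn7l3-/- MEFs, a log2 fold change of 5.37 ± 0.46 (adjusted p = 0.00591). Its level in mESCs was 879 to 1186 CPM with a log2 fold change of 0.11 (adjusted p = 0.767). The mESC markers in the MEF table summed to 0.512 to 7.43 CPM in the Atxn7l3-/- MEF libraries, below 5.22 to 49.6 CPM in WT in 2 of the 3. Esrrb, Dppa5a and Tdgf1 were at or below 3 counts in every Atxn7l3-/- MEF library. Most of the WT sum was Sox2 alone, at 4.44 to 47.8 CPM in WT and at most 6.77 CPM in Atxn7l3-/- MEFs (adjusted p = 0.214, edgeR). Nanog overlapped, at 0.594 to 1.06 CPM in WT and 0.512 to 0.659 CPM in Atxn7l3-/- MEFs (adjusted p = 0.554). The sum thus mainly follows 1 gene.

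In mESCs, Myc, a regulator of growth that STAT3 and other factors induce, fell from 7.69 and 7.41 CPM to 0.154, 0.557 and 0.18 CPM (log2 -4.61 ± 0.62, adjusted p = 0.0211). Sall4, a zinc finger factor of pluripotent cells, fell from 270 and 312 CPM to 107, 91.1 and 101 CPM (log2 -1.50 ± 0.19, adjusted p = 0.0211). Ccnd1, which encodes cyclin D1, fell from 66.3 and 126 CPM to 35.8, 37.1 and 33.0 CPM (log2 -1.39 ± 0.27, adjusted p = 0.0317). Icam1, an adhesion molecule, rose from 41.3 and 69.5 CPM to 190, 167 and 330 CPM (log2 2.11 ± 0.38, adjusted p = 0.0299). None of these 4 genes was called without WT replicate 1, WT replicate 2 or Atxn7l3-/- replicate 1, where adjusted p lay between 0.0815 and 0.225. Klf4 and Klf5, pluripotency factors downstream of STAT3, had log2 fold changes of -0.54 (adjusted p = 0.176) and -0.60 (adjusted p = 0.143). Both were called without Atxn7l3-/- replicate 2 (adjusted p = 0.0488 and 0.0448).

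**Figure D5:**
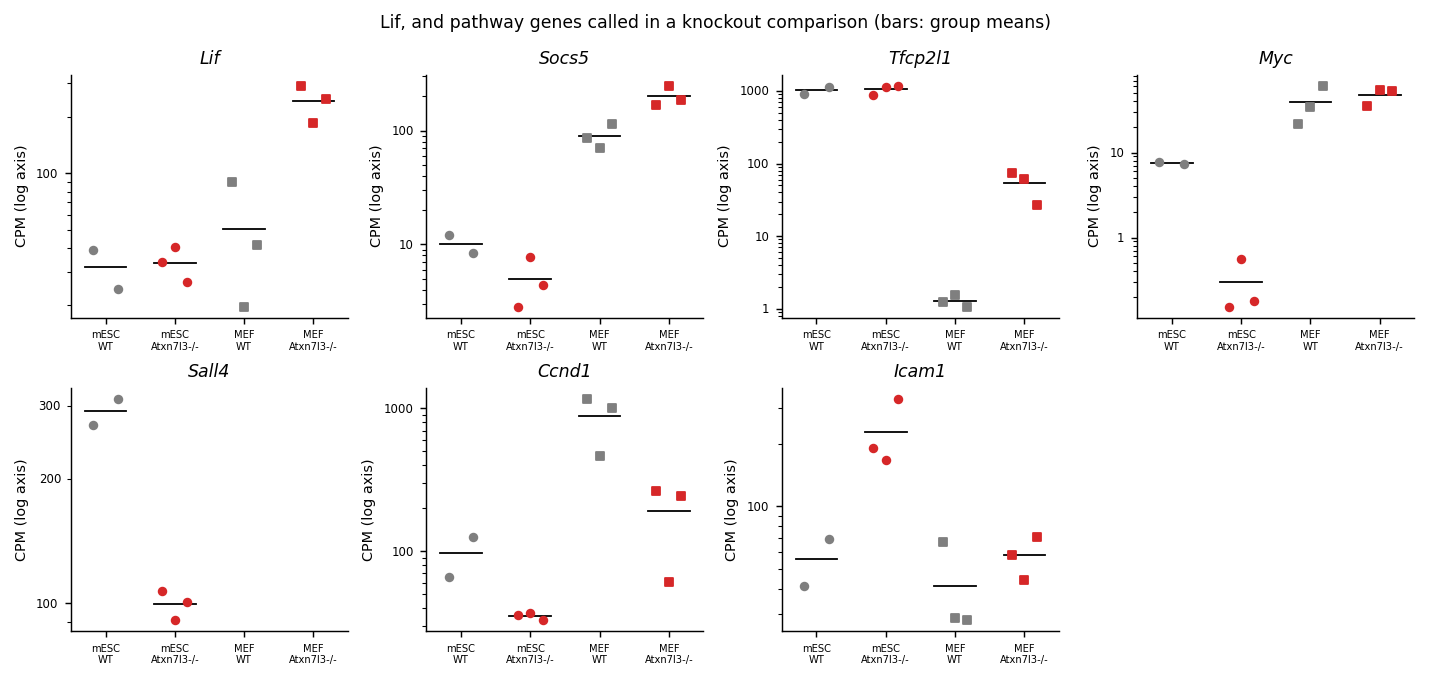
CPM in each library on log axes for Lif and for 6 other pathway genes called in a knockout comparison, with circles for mESCs, squares for MEFs, grey for WT, red for Atxn7l3-/- and bars for group means; Sall4 has no MEF points. Tfcp2l1 is at 1.07 to 1.56 CPM in WT MEFs and 27.2 to 75.2 CPM in Atxn7l3-/- MEFs, and Myc is at or below 0.557 CPM in Atxn7l3-/- mESCs.

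The genes whose levels moved most like those of Socs3 and Lifr over the 11 libraries, after each cell type's mean was taken out, were found by Pearson's r of log2 CPM. For Socs3 they were Psmb10 (0.97), Ddt (0.97), Fzd9 (0.95), Cox4i2 (0.94) and Kptn (0.93). For Lifr they were Cd36 (0.94), Mfsd4a (0.94), E2f2 (0.93), Depdc5 (0.91) and B3gnt7 (0.91). Of the other 9 genes, the r with Lifr was highest for Pim3 (0.60) and Il6st (0.51) and lowest for Jak1 (-0.80), and the r with Socs3 was lowest for Jak2 (-0.87). All points share their libraries, and these values describe 11 libraries only.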

How the data were processed

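Poly(A)+ RNA libraries (TruSeq Stranded mRNA) were sequenced, and the submitters' processing notes name cutadapt 1.10, STAR 2.5.3a, HTSeq 0.6.1p1, DESeq2 1.16.1 and mm10. The authors deposited 1 table per cell type with raw counts per gene, and a normalized signal that is the count divided by a size factor and by the median transcript length in kb. Deposited log2 fold changes and p-values of the authors' comparison were not used. Raw counts were filtered with filterByExpr, normalized by TMM and tested with edgeR 4.0.16 (R 4.3.3, quasi-likelihood, Benjamini-Hochberg). Each cell type was fitted alone, and the cell types were joined by gene ID for the interaction and the WT contrast, whose levels therefore come from 2 tables counted separately. Levels are TMM CPM over 11 libraries; logs used a prior count of 2. GENCODE M21, which holds 99.8% of listed genes, gave exons and GC content.

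Same-numbered MEF libraries of both genotypes deviated together (r = 0.473, 0.161 and 0.240 over 15958 genes), beside -0.262 to 0.0516 for other-numbered pairs. The labels do not pair them. Deviations from a mean of 3 libraries depend on each other, so these values alone cannot show a pairing. Alternatives were RLE, no filter, DESeq2 1.42.0, the replicate block, leaving out each library, the study's thresholds, other sets of libraries and, added after seeing the data, GC corrections (lowess span 0.3) and mESC libraries with Y-linked reads. All 10 genes are named, and from the pathway list those called in a knockout comparison plus genes needed for their role, and some results of the list are not reported here. The genes, lists and tests were chosen with earlier results of these data known. The fits were tested on simulated data. P-values measure the spread between lines or embryos, 2 or 3 a group.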

Additional observations from a re-analysis of the deposited data

Results flagged for a closer look

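The interaction test over all 11 libraries (edgeR's quasi-likelihood test) asked whether the knockout effect differed between MEFs and mESCs. Of the 51 other pathway genes tested, 4 were called with a higher and 1 with a lower effect in MEFs. The shares over all genes tested were 6.14% and 5.27%. None of the genes named here is among the 10 genes of the report. The difference, MEFs minus mESCs on the log2 scale, was 5.33 for Tfcp2l1 (adjusted p = 0.000597), 4.91 for Myc (adjusted p = 0.00494), 2.17 for Socs5 (adjusted p = 0.0268) and 2.73 for Bcl3 (adjusted p = 0.0422). For Jak3, named here after its values were seen, it was -1.82 (adjusted p = 0.0412). Myc was lower in Atxn7l3-/- mESCs and at 21.9 to 61.3 CPM in WT MEFs beside 34.8 to 55.0 CPM in Atxn7l3-/- MEFs. Bcl3, a nuclear cofactor of NF-kappaB, was at 11.6 and 15.2 CPM in WT mESCs, 6.61 to 9.84 CPM in Atxn7l3-/- mESCs, 1.14 to 5.84 CPM in WT MEFs and 10.8 to 13.9 CPM in Atxn7l3-/- MEFs, and neither single comparison was called (adjusted p = 0.184 and 0.0833), although the replicate block called it in MEFs (adjusted p = 0.0441). Groups of 2 or 3 libraries are too small for the check on single outlying samples.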

How the results depend on the processing

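Among the log2 fold changes of the 10 genes under alternatives, 530 kept their direction and their side of the threshold, 14 passed it in addition, 6 lost it and 20 changed sign. The genes called in mESCs numbered 1238, and 2995 without a filter, 3390 with DESeq2, 446 in 1 fit of all libraries and 3890 in the libraries with Y-linked reads, with 1, 1, 0 and 3 of the 10 genes. In MEFs they numbered 1501, and 3920 with DESeq2 and 3569 in 1 fit of all libraries, each with 2 of the 10 genes. For the interaction they numbered 2205, and 4188 with DESeq2, 1381 with the replicate block and 1198 with the block and GC correction, and the GC correction alone called 1 of the 10. Leaving out each library gave 0 to 2242 genes in mESCs (0 without WT replicate 1 or 2, 3 without Atxn7l3-/- replicate 1 and 2242 without Atxn7l3-/- replicate 2), 197 to 2038 in MEFs (464, 866 and 197 without WT replicates 1 to 3, 252 and 285 without Atxn7l3-/- replicates 1 and 2), 253 (without WT mESC replicate 1) to 3140 for the interaction and 6518 (without WT mESC replicate 2) to 10225 between WT cell types. Of the 10 genes, 0 to 3, 0 to 1, 0 to 1 and 7 to 8 were then called. With the replicate block the mESC and MEF tests called 1435 and 2232 genes, and it changed no call of the 10 genes. Of the named pathway genes it called Lif, Cntfr, Ccnd1, Junb and Bcl3 and lost Socs5 in MEFs. For same-numbered mESC libraries r was 0.0078 and -0.172. With 2 WT libraries the deviations from their mean mirror each other, so these values cannot show whether mESC numbers pair lines. Values that changed sign were all uncalled. In mESCs, leaving out each library gave a range from -0.518 to 0.278 for Lifr, from -0.044 to 0.253 for Jak1 and from -0.078 to 0.251 for Jak2, where the sign turned without WT replicate 2 and, for Jak2, also without Atxn7l3-/- replicate 2. Socs3 was at -0.059 with GC correction and block, and Lifr (0.073), Jak1 (-0.051) and Jak2 (-0.160) turned in the libraries with Y-linked reads. In MEFs Jak2 was at -0.007 with GC correction. For the interaction the leave-one-out range was -3.264 to 0.321 for Osmr and -0.391 to 0.059 for Pim1. Pim1 was at 0.058 with the block, Jak2, Pim1 and Gbx2 were at -0.126, 0.479 and 0.377 with GC correction, and Jak2, Socs3, Pim1 and Gbx2 at -0.192, 0.008, 0.623 and 0.426 with GC correction and block. The cause was not tested. Osmr in mESCs and Gbx2 in MEFs rest on few counts. Where 1 library was left in a group, as in the libraries with Y-linked reads and without either WT mESC library, it was assumed to vary like the other group.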

Other observations

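Between the WT cell types, 21 of the 51 pathway genes tested were called higher in MEFs and 11 lower. The shares over all genes tested were 26.8% and 27.1%. Among the ligands, Il6, Il11, Ctf1 and Clcf1, named after their values were seen, were higher in MEFs. Oncostatin M (Osm), a ligand of the chain encoded by Osmr, was lower (edgeR). Of the 16 other STAT3 targets tested, 8 were higher in MEFs. These were the early response genes Fos, Junb, Ier3 and Zfp36, and Myc, Cebpb, Cebpd and Ccnd1. Klf4, Klf5, Tfcp2l1 and Bcl3 were the 4 that were lower. Cell type, medium and derivation differ together here and cannot be told apart.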
